A study of Canis lupus familiaris with 30 samples.

Results

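The genes described here encode the nuclear share of the oxidative phosphorylation machinery, the 5 mitochondrial complexes that turn NADH and succinate into ATP. Members were all gene IDs whose symbol began with NDUFA, NDUFB, NDUFC, NDUFS, NDUFV, UQCR, COX4 to COX8 or ATP5, or was SDHA, SDHB, SDHC, SDHD or CYC1. Of 32704 Ensembl gene IDs of CanFam3.1, 5086 could be given a symbol and 31 were members. Complex I gave 14 of them, of which 5 were core subunits, 7 were other subunits and 2 were assembly factors. Complex II gave 2, complex III 5, complex IV 3 and ATP synthase 7. Symbols were taken from the study's tables of tested genes, so the members are the named part of a larger family, and SDHC, SDHD and UQCRC1 were not analysed here.

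Complexes I and II pass electrons from NADH and succinate to coenzyme Q, complex III passes them to cytochrome c, and complex IV passes them to oxygen. Complexes I, III and IV pump protons as they do so, and ATP synthase uses the proton gradient to make ATP. Most subunits are encoded in the nucleus and imported, while a small set at the core of the complexes is encoded in mitochondrial DNA, so that the mitochondrial and nuclear genes have to be expressed together. Dividing lymphocytes are known to raise mitochondrial respiration, and lymphomas differ in how far they rely on it.

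RNA was sequenced from fine needle aspirates of enlarged lymph nodes of 15 client dogs with spontaneous lymphoma, with 1 library per dog before treatment (initial) and 1 library after 6 weeks of CHOP (six-week). CHOP combines cyclophosphamide, doxorubicin, vincristine and prednisone. By flow cytometry 7 dogs were labelled B-cell, 3 T-cell and 5 unknown, since those 5 were not immunophenotyped. All 15 dogs were treated and none served as an untreated control, a single prednisone injection before enrolment was permitted, breed, sex and age were unrestricted, and an aspirate holds normal node cells as well as tumor cells. In such bulk RNA, fewer cells of a type and less RNA per cell cannot be told apart.

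Levels are FPKM, read numbers scaled by transcript length and sequencing depth, which can be compared between genes because of the scaling by length. Total counts ran from 4318394 to 43413353 per library, and FPKM summed to between 769269 and 2253173. The columns of read counts ranked genes as FPKM did in 18 libraries of 9 dogs (Spearman's rho 0.880 to 0.983) but not in the 12 libraries of the other 6 dogs (0.0868 to 0.117), whose counts were therefore not used. Lineage markers went against the label or shifted between timepoints in 5 dogs, picked out after their values were seen. Dog 038, labelled T-cell, had an initial mean log2(FPKM+1) of 6.09 for the B-cell markers PAX5 and CD22, the 2 of 8 listed that were found, and 2.59 for 8 T-cell markers. Dog 029, labelled B-cell, had markers of both lineages, 4.89 and 5.90, when the other B-cell dogs had 5.35 to 6.64 and 1.47 to 3.34. In dog 036, labelled T-cell, B-cell markers went from 0.73 to 4.25, and T-cell markers went from 1.99 to 5.75 in dog 025 and from 3.34 to 5.63 in dog 034. Dog 003, labelled B-cell, was not put in this set, though its T-cell markers went from 1.47 to 3.68. Its B-cell markers were at 6.36 at 6 weeks. The counts and medians over members are also given without some of the 5 dogs, though not without each of them in every comparison. No comparison between the labels was made without dog 034.

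Before treatment the members lay among the more abundant transcripts of the aspirates. All 31 exceeded a mean of 1 FPKM over the 30 libraries. Among the gene IDs that did so, their median stood at the 87.9th percentile in the median dog, with a range over dogs from 81.5 to 90.6. The study filtered its results for genes with a mean normalized count above 50, and members were named only through its tables. Relatives of low expression may thus be missing, and this rank may depend in part on the naming. Between members the mean FPKM spanned from 4.36 for NDUFAF6 to 380.1 for UQCRB. The plot of levels before treatment shows that genes of the same complex were spread widely.

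**Figure D1:**
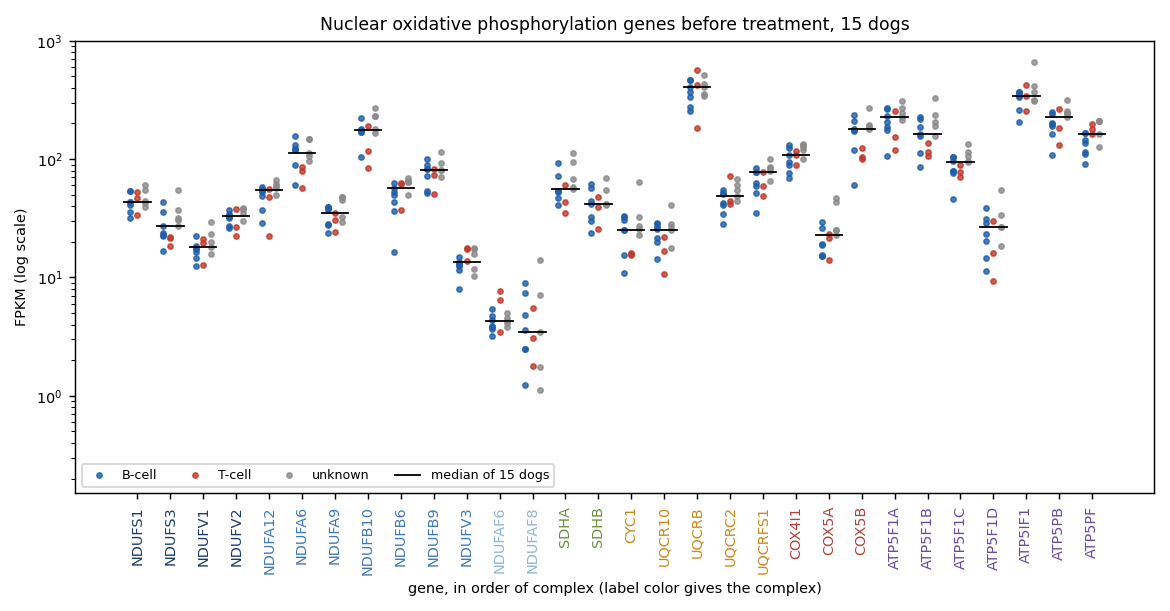
FPKM of 30 of the genes in the initial libraries of 15 dogs, on a log axis, with points colored by immunophenotype label, a bar at the median of 15 dogs and gene names colored by complex. UQCRB and ATP5IF1 sit at the top, with means over 30 libraries of 380.1 and 356.7 FPKM, and the assembly factors NDUFAF6 and NDUFAF8 at the bottom, with means of 4.36 and 4.81.

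In complex I, the entry point for NADH, the core subunits were expressed at modest levels. NDUFV1, which binds NADH and the flavin that first takes its electrons, had the lowest mean of the core, with 12.5 FPKM in the lowest initial library, a median of 18 and 29.5 in the highest. NDUFS1, an iron-sulfur subunit of the same arm, had the highest, with 32.0, 43.2 and 60.3 FPKM. NDUFV2, another iron-sulfur subunit, was the steadiest member of all, with an SD of 0.27 in log2(FPKM+1) over 30 libraries and initial levels of 22.4, 33.1 and 38.8 FPKM. Among the subunits outside the core, NDUFB10 had the highest mean, 167.9 FPKM over 30 libraries, and NDUFV3 the lowest, 13.4.

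The 2 assembly factors were the least abundant members. NDUFAF6 had initial levels of 3.19 FPKM in the lowest library, 4.25 at the median and 7.73 in the highest. NDUFAF8 had the largest spread of all members, with an SD of 1.06 in log2(FPKM+1) over 30 libraries, and was listed at 0 in the six-week libraries of dogs 025, 034 and 038. Its initial FPKM in those dogs had been 3.43, 7.45 and 1.80.

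Succinate dehydrogenase, complex II, was represented by its flavoprotein SDHA and its iron-sulfur subunit SDHB. SDHA had 34.8 FPKM in the lowest initial library, a median of 55.6 and 112 in the highest, and SDHB 24.0, 42.0 and 69.8. In complex III, UQCRB, a small subunit near the ubiquinone site, was the most abundant member, with 184, 404 and 561 FPKM. The electron carriers of this complex stood far below it: UQCRFS1, the Rieske iron-sulfur protein, had a median of 77.2 FPKM, and CYC1, cytochrome c1, a median of 25.3. CYC1 had the largest fold between its lowest and highest of 30 libraries among members never listed at 0, 12-fold, from 5.36 to 64.4 FPKM. UQCRC2, a core protein of complex III, had initial levels of 28.5, 48.7 and 72.0 FPKM.

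Of complex IV, COX5B was the most abundant, with 60.7 FPKM in the lowest initial library, a median of 179 and 272 in the highest, and COX5A the least, with 14.1, 22.7 and 46.8. COX4I1, the common isoform of subunit 4, had 69.5, 108 and 134 FPKM. In ATP synthase, the catalytic and structural subunits of the F1 head were ATP5F1A with an initial median of 228 FPKM, ATP5F1B with 164 and ATP5F1C with 94.4. ATP5F1D, the delta subunit, had the lowest mean of the complex, 25.5 FPKM over 30 libraries. ATP5IF1 encodes the inhibitor that stops the enzyme from running backwards, and it was the most abundant transcript of this complex, with 206, 342 and 664 FPKM. Summed over members, ATP synthase transcripts came to 1237 ± 288 FPKM before treatment (SD, n = 15) and 1121 ± 380 at 6 weeks.

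The spread of the members between libraries was close to that of other genes of like level. The SD of log2(FPKM+1) over 30 libraries had a median of 0.48 over the 31 members, and 0.49 over the 8923 gene IDs within the members' range of mean FPKM. In some dogs most members lay on the same side of the median of the 15 dogs. In the initial library of dog 024, which carried no immunophenotype, 31 of 31 members were above the median of the 15 dogs, and in dog 003 and dog 031_032 this held for 28 and 26. At the other end, 0 of 31 members were above that median in dog 029, 2 in dog 027, 3 in dog 038 and 4 in dog 033. The other 8 dogs had 11 to 22, and of the 8923 gene IDs of like level 32.7% to 63.7% were above their median, 43.8% in dog 024 and 50.9% in dog 029. The members' median in log2(FPKM+1) was 5.09 in dog 029, the lowest of the 15, and 6.14 in dog 024, the highest. Dog 029 also had the lowest mean of proliferation markers before treatment, 4.2 against 4.6 in dog 038 and 5.20 to 6.19 in the other dogs. The part of cell composition in this ordering was not tested.

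The comparison of six-week with initial libraries asked how expression shifted during the course of CHOP. On average the transcripts of all 5 complexes were lower at 6 weeks, by small amounts, and no member passed the test. With limma on log2(FPKM+1) and each dog as a block, 0 of 31 members were called at an adjusted p under 0.05, and 0 of 14257 genes tested (0% called). At an unadjusted p under 0.05 there were 11 members, all lower, beside 1823 genes in all (12.8%). The estimate was below 0 for 30 of 31 members and for 51.4% of all genes. The changes over time in 9 of these dogs helped to name 20 of the members, so this count is not independent of the naming. The members' median log2 difference was -0.19, ranging from -0.39 to 0.00, against -0.01 over all genes. Among genes with a mean above 10 FPKM, which is where 29 members lie, 28 members and 71.5% of all genes were below 0, and the medians were -0.21 and -0.08. In simulated data of this design 84.1% of 2-fold changes were recovered, and all members had estimates smaller than that.

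The lowest p belonged to complex III. UQCRC2 had 28.5 FPKM in the lowest initial library, a median of 48.7 and 72.0 in the highest, and 22.1, 36.0 and 81.7 at 6 weeks. It was lower at 6 weeks in 12 of 15 dogs, but the ranges overlapped almost entirely. The log2 difference was -0.34 ± 0.10 (SE, n = 15 dogs) with an adjusted p of 0.298 in limma. CYC1 had 11.0, 25.3 and 64.4 FPKM before treatment and 5.36, 19.7 and 60.6 at 6 weeks. It was also lower in 12 of 15 dogs, with a log2 difference of -0.39 ± 0.14 (limma, adjusted p 0.307). UQCRFS1 gave -0.36 ± 0.14 and was lower in 10 of 15 dogs. UQCR10 and UQCRB, small subunits of the same complex, gave 0.00 ± 0.12 and -0.08 ± 0.12 and were lower in 6 and 5 dogs.

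In ATP synthase the lowest estimates belonged to ATP5F1B, ATP5F1A and ATP5PB, a subunit of the peripheral stalk, which gave -0.29 ± 0.12. ATP5F1B, the catalytic beta subunit, had 86.2, 164 and 331 FPKM before treatment and 70.3, 141 and 366 at 6 weeks. It was lower in 12 of 15 dogs, with a log2 difference of -0.35 ± 0.13 (limma, adjusted p 0.316). ATP5F1A gave -0.29 ± 0.12 and ATP5F1C -0.21 ± 0.10, each lower in 10 dogs. ATP5IF1 gave -0.04 ± 0.12 and ATP5F1D -0.05 ± 0.16, each lower in 8 dogs. The difference between these subunits was not tested.

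Complexes I, II and IV gave estimates below 0 for each of their members. In complex I the core subunits ran from -0.22 ± 0.10 for NDUFV1 to -0.10 ± 0.09 for NDUFV2, and NDUFB6 had the lowest estimate of any member, -0.39 ± 0.18. SDHA gave -0.21 ± 0.09 and SDHB -0.15 ± 0.11. COX4I1 was lower in 12 of 15 dogs, with -0.29 ± 0.12, COX5B gave -0.34 ± 0.16 and COX5A -0.23 ± 0.18. None of these had an adjusted p under 0.298. By complex, the median estimate was -0.34 for complex III, -0.29 for complex IV, -0.21 for ATP synthase, -0.18 for complex II, -0.19 for the subunits of complex I outside its core and -0.15 for the core. Without dogs 025 and 034 these medians were -0.21, -0.15, -0.11, -0.13, -0.08 and -0.09.

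**Figure D2:**
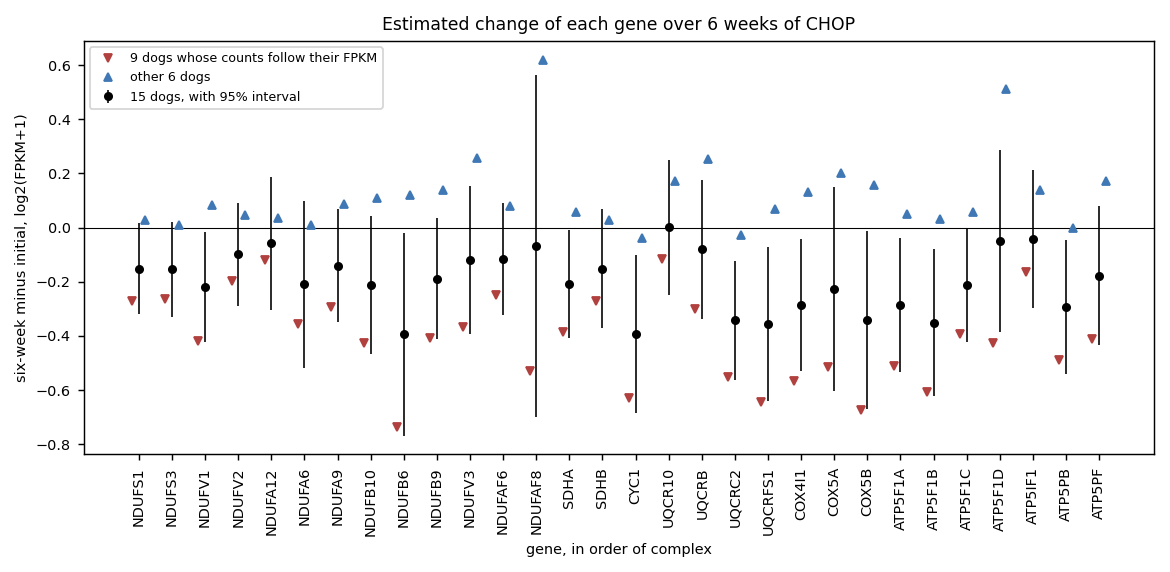
Estimated difference between six-week and initial libraries in log2(FPKM+1) for 30 of the genes, with 95% intervals for 15 dogs (black), and the estimates in 9 dogs (red) and in the other 6 dogs (blue). The black points lie between -0.39 and 0.00, the red points between -0.74 and -0.11, and the blue points between -0.04 and 0.62.

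The average was made up of unlike dogs. The median change over the 31 members was -0.94 in dog 025, -0.89 in dog 034 and -0.64 in dog 031_032, and in the first 2 of these dogs 31 of 31 members were lower at 6 weeks. Dogs 033, 038 and 036 followed with -0.40, -0.35 and -0.26, and dogs 037 and 003 with -0.19 and -0.14. The remaining 7 dogs lay between 0.02 and 0.18, and in dog 027 only 1 of 31 members was lower. In dog 033 the genes above 10 FPKM had a median change of -0.44 themselves, and its six-week library had the highest FPKM sum of the 30. Set against the genes above 10 FPKM of the same dog, the members changed by -0.71 in dog 025, -0.69 in dog 034, -0.45 in dog 031_032 and 0.04 in dog 033, and by -0.20 to 0.12 in the other 11 dogs.

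**Figure D3:**
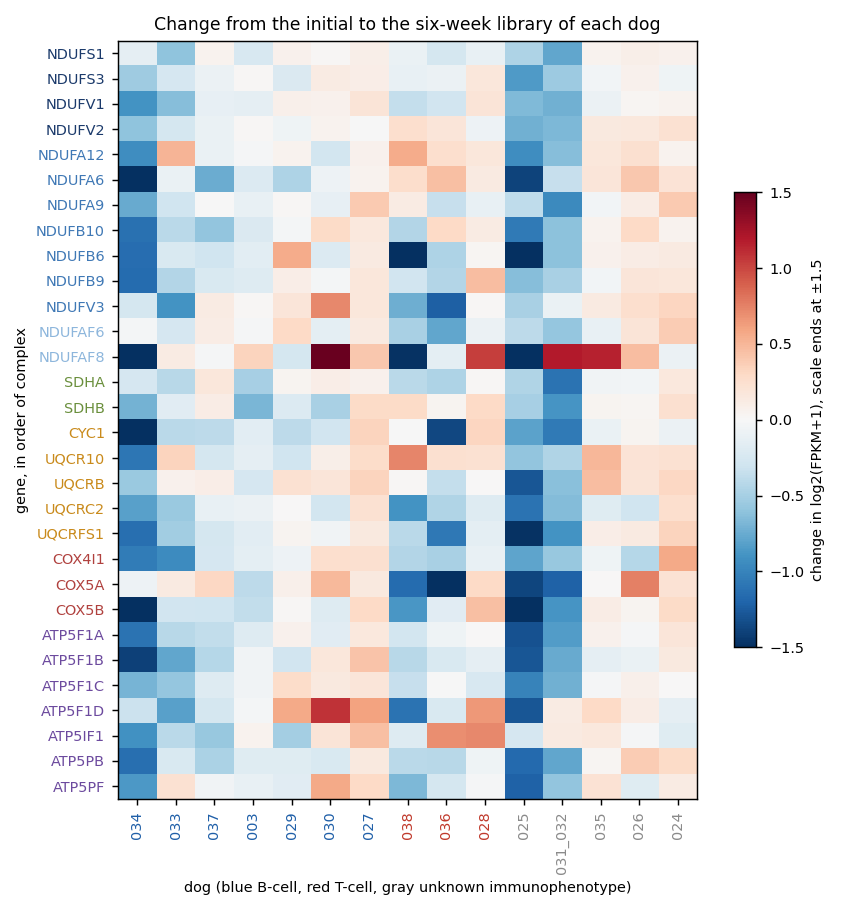
Change in log2(FPKM+1) from the initial to the six-week library for 30 of the genes (rows, in order of complex) and dog (columns, by immunophenotype label), in blue where lower and red where higher at 6 weeks. The columns of dogs 025 and 034 are lower in 30 of 30 genes, whereas in dog 027 1 of 30 was lower.

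Single members show the size of these changes. In dog 025 NDUFB6 went from 63.9 to 12.5 FPKM, COX5B from 180.1 to 55.9 and UQCRFS1 from 83.7 to 29.4. In dog 034 CYC1 went from 30.4 to 10.1 FPKM, ATP5F1B from 187 to 70.3 and NDUFA6 from 121 to 42.0. In dog 031_032 SDHA went from 94.9 to 43.4 FPKM and COX5A from 43.3 to 18, while NDUFAF8 went from 1.75 to 5.30. With 1 library per dog and timepoint, no change within a dog has a replicate. In dogs 025, 034 and 031_032 the initial library did not correlate best with its own six-week partner.

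The 9 dogs with usable counts and the other 6 dogs gave different averages. The 9 dogs are those of the study's own table of changes over time in Cluster Group 2, a group that the authors formed by clustering expression, and 20 of the 31 members are named in that table, 9 of them nowhere else. The values of those 9 dogs thus helped to choose members and are a description. In them the limma estimate was below 0 for 31 of 31 members, with a median of -0.41, when 53.5% of all genes were below 0. The study's other table of changes over time, of Cluster Group 1, was made from the counts of the other 6 dogs, which do not follow their FPKM, and it names 10 members, 4 of them nowhere else. In the FPKM of those 6 dogs it was below 0 for 4 of 31, with a median of 0.08, when 40% of all genes were. No member was called in either set by limma (0% of genes called in each). In the 9 dogs 17 members had an unadjusted p under 0.05, all lower, beside 2339 of 14218 genes in either direction. In the 6 dogs 5 members did, all higher, beside 807 of 14274 genes in either direction. These 5 were ATP5F1D at 0.51, NDUFAF8 at 0.62, UQCRB at 0.25, NDUFV3 at 0.26 and COX5A at 0.20. The difference between the 2 sets of dogs was not tested. The 22 members named in at least 1 other table gave 21 of 22 below 0 over the 15 dogs, with a median of -0.15.

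Read counts of the 9 dogs are those from which the table that names 20 of the members, COX4I1 and UQCRC2 among them, was made, so what they gave is a description and no independent test. In DESeq2, 2 of 30 members tested were called lower, beside 0.938% of genes called lower and 5.04% called either way. COX4I1 had a log2 difference of -0.50 with an adjusted p of 0.00679 in DESeq2 and -0.52 with 0.261 in edgeR. UQCRC2 had -0.49 with 0.0299 in DESeq2 and -0.51 with 0.261 in edgeR. Both were lower in 9 of 9 of these dogs in FPKM. In edgeR's quasi-likelihood test 0 of 11510 genes were called, and 14 members and 1658 genes in all had an unadjusted p under 0.05. Of the member estimates 30 of 30 were below 0, beside 50.8% of all genes (48.6% in DESeq2, also with 30 of 30 members). On simulated counts of 11337 genes, DESeq2 called 53 unchanged genes and edgeR 8. Those counts were drawn with no differences between dogs except in depth, unlike the counts here, so these numbers need not hold for the real dogs.

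Markers of dividing cells and of other cell types also differed between the timepoints, in part in the same dogs. Like the members, they were found only through the study's tables, which include the changes in 9 of these dogs. Their counts may thus depend on that naming. Of all genes 51.4% were below 0 over the 15 dogs, and 12.8% had an unadjusted p under 0.05 in limma. Of 12 proliferation genes, such as MKI67 and TOP2A, 12 had estimates below 0 over the 15 dogs and 12 had an unadjusted p under 0.05 in limma, and none was called. Their summed level ran from 312 to 1409 FPKM before treatment and from 237 to 1206 at 6 weeks, with none at 0 in any library. The mean proliferation change was -1.88 in dog 034, -1.25 in dog 025, -0.86 in dog 036 and -0.82 in both dog 031_032 and dog 033, and the members' median and this mean changed in the same direction in 11 of 15 dogs, 9 of the 9 and 2 of the other 6. Of the 2 B-cell genes, PAX5 and CD22, 2 were below 0 and 0 had an unadjusted p under 0.05. Their mean changed by -1.84 in dog 025, -1.60 in dog 038 and -1.27 in dog 034. It also changed by -1.21 in dog 029, where the members' median changed by 0.02. It rose by 0.42 in dog 031_032, 0.61 in dog 037 and 3.52 in dog 036, and fell in the other dogs. Of 8 T-cell genes, 8 were above 0 and 6 had an unadjusted p under 0.05. Their summed level ran from 21 to 919 FPKM before treatment and from 29.5 to 683 at 6 weeks, with ZAP70 listed at 0 in at least 1 initial library. Their mean changed by 3.76 in dog 025, 2.29 in dog 034 and 2.21 in dog 003, but also by 1.3 in dog 026 and 1.13 in dog 035, where the members' medians changed by 0.11 and 0.05, and by -1.38 in dog 036. The 4 macrophage and monocyte genes, 4 of 4 above 0, summed to between 5.22 and 71.9 FPKM before treatment and between 4.58 and 261 at 6 weeks, with none at 0, and their mean changed by 2.94 in dog 025, 2.11 in dog 034, 2.01 in dog 036 and 1.70 in dog 038. The 5 genes of stroma and vessels, 5 of 5 above 0 and 2 at an unadjusted p under 0.05, summed to between 4.29 and 85.4 FPKM and then between 1.49 and 64.0, with COL1A1 listed at 0 in at least 1 library of each timepoint. Their mean changed by 1.39, 1.57, 1.45 and 1.88 in these same 4 dogs. The part of these cells in the members' values was not tested.

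**Figure D4:**
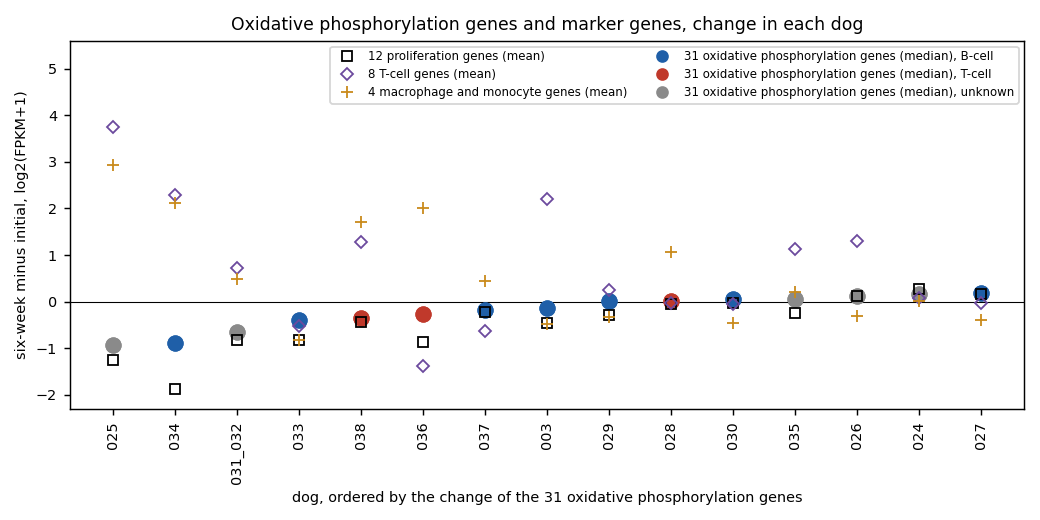
Change in log2(FPKM+1) from the initial to the six-week library in each of 15 dogs, as the median of the 31 genes (filled circles, colored by label) and as the mean of 12 proliferation genes, 8 T-cell genes and 4 macrophage and monocyte genes (open or thin symbols). The dogs at the left, 025 and 034, have member medians of -0.94 and -0.89 beside proliferation changes of -1.25 and -1.88.

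Without dogs 025 and 034, 25 of 31 members were still below 0, beside 56.9% of all genes, with a median of -0.09 against -0.03 over all genes. At an unadjusted p under 0.05 there were 2 members, beside 718 of 14074 genes. UQCRC2 then gave -0.25 and CYC1 -0.27. Leaving out dog 036 as well gave 25 of 31 and a median of -0.09, and leaving out dogs 025, 029, 034, 036 and 038 gave 22 of 31, beside 52.6% of all genes, and a median of -0.09. In the 9 dogs, leaving out 025 and 034 gave 28 of 31, beside 62.4% of all genes below 0, and a median of -0.26. Sequencing depth moved with time too, since 12 of 15 dogs had fewer counts at 6 weeks, dog 025 with 20613641 and then 6609226.

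Other mitochondrial genes had averages of the same sign, and none was called by limma. They too were found only through the study's tables, which include the changes in 9 of these dogs, so their counts may depend on that naming. Of all genes 51.4% were below 0, and 71.5% of those with a mean above 10 FPKM. Of 14 genes of the tricarboxylic acid cycle, which supplies NADH and succinate to complexes I and II, 14 were below 0, with a median of -0.19, and 4 had an unadjusted p under 0.05. CS, citrate synthase, gave -0.24 ± 0.09. Of 10 genes for cytochrome c, coenzyme Q synthesis and mitochondrial carriers, 9 were below 0 with a median of -0.15, and SLC25A5, which exchanges ADP for ATP across the inner membrane, gave -0.40 ± 0.15. The 16 further assembly factors gave 14 below 0 and a median of -0.12, with 0 at an unadjusted p under 0.05. The 8 mitochondrially encoded genes gave 8 below 0 and a median of -0.10, again with 0 at that level. Their mean changed by 0.05 in dog 034, where the members' median changed by -0.89. In dog 025 it changed by -0.89 beside -0.94 for the members, and in dog 031_032 by -0.12 beside -0.64. Of 4 genes at the end of glycolysis, 3 were below 0, with a median of -0.24, and all 4 had an unadjusted p under 0.05 in limma. LDHB, a lactate dehydrogenase subunit, gave -0.33 ± 0.15, and PDK4, a kinase that holds pyruvate out of the cycle, gave 0.67 ± 0.29. The related kinases PDK1 and PDK3 were below 0, unlike PDK4. Without dogs 025 and 034 the medians were -0.14 for the tricarboxylic acid cycle with 13 of 14 below 0, -0.09 for cytochrome c, coenzyme Q and carriers with 10 of 10, -0.06 for assembly factors with 12 of 16 and -0.05 for mitochondrially encoded genes with 7 of 8. MYC and NRF1, the regulators of mitochondrial biogenesis that were found, had estimates between -0.05 and -0.02.

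The immunophenotype label was compared next, in the initial libraries, to ask whether T-cell and B-cell lymphomas differed in these genes. No member passed the test. With 3 T-cell and 7 B-cell dogs, 0 of 31 members were called by limma beside 49 of 13565 genes (0.361%), and 2 members had an unadjusted p under 0.05, beside 22.5% of genes. The members' median log2 difference, T-cell minus B-cell, was -0.13, with 22 of 31 below 0 against 51.7% of all genes. At this group size 20.4% of simulated 2-fold and 68.5% of 4-fold changes were recovered, so a difference of that size could be missed.

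NDUFA6, an accessory subunit of complex I, had 79.0, 86.5 and 56.8 FPKM in the 3 T-cell dogs. The 7 B-cell dogs had a lowest value of 60.2, a median of 121 and a highest value of 157. These ranges overlapped, with a log2 difference of -0.58 ± 0.26 (limma, adjusted p 0.200). ATP5PF, a subunit of the stalk that joins the F1 head to the membrane part, had 179.8, 196 and 162 FPKM in the single T-cell dogs. Its lowest, median and highest values in B-cell dogs were 91.7, 136 and 167. It was the highest of the positive estimates, 0.46 ± 0.22 (limma, adjusted p 0.234).

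**Figure D5:**
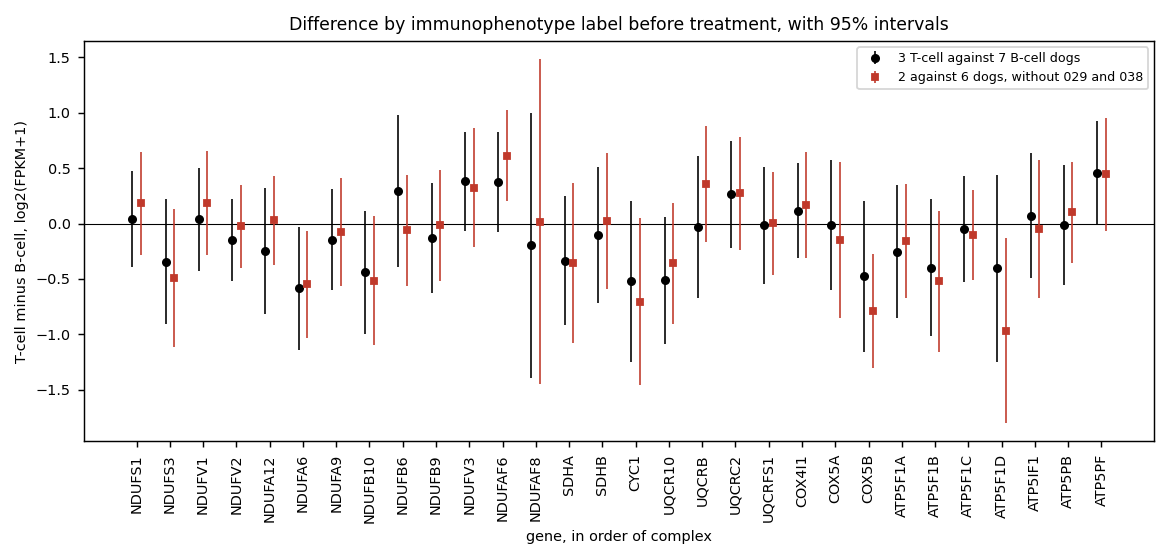
T-cell minus B-cell difference in log2(FPKM+1) before treatment for 30 of the genes, with 95% intervals, for 3 T-cell and 7 B-cell dogs (black) and for 2 and 6 dogs without dogs 029 and 038 (red). The black points lie between -0.58 and 0.46, and in the red set NDUFAF6 at 0.61 and COX5B at -0.79 were called by limma.

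Leaving out dog 038, whose lineage markers went against its label, and dog 029, which had markers of both lineages, changed this result. Then 3495 of 13333 genes were called (26.2%) and 2 of 31 members (NDUFAF6 and COX5B), a share under that of all genes. NDUFAF6 was at 6.44 and 7.73 FPKM in T-cell dogs 028 and 036, above the B-cell range of 3.64 to 5.46 in the 6 dogs left, and dog 038 had 3.47. The log2 difference was 0.61 ± 0.19 with an adjusted p of 0.0318 in limma, and 0.66 with 0.0375 without dog 038 alone, when 17.7% of genes were called. COX5B was at 100 and 105 FPKM in dogs 028 and 036, below the 119 to 234 of the B-cell dogs left, and dog 029 had 60.7. Its log2 difference was -0.79 ± 0.24 with an adjusted p of 0.0272 without dogs 029 and 038, and -0.48 ± 0.32 with 0.384 with all 10 dogs. The members' median moved from -0.13 to -0.05 without both dogs, with 18 of 31 below 0, and to 0.05 without dog 038 alone, with 13 of 31.

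At 6 weeks 0 of 31 members and 0 of 15346 genes (0%) were called between the labels, 0 members and 1271 genes (8.28%) having an unadjusted p under 0.05. COX5A, which had the lowest p, was at 17.5, 6.87 and 9.15 FPKM in the single T-cell dogs. Its lowest, median and highest values in B-cell dogs were 14.5, 21 and 32.7, with a log2 difference of -0.94 ± 0.45 (limma, adjusted p 0.613). ATP5IF1 was at 416, 677 and 297 FPKM in the single T-cell dogs and at a lowest, median and highest of 144, 277 and 424 in B-cell dogs. Its log2 difference was 0.72 ± 0.36 (limma, adjusted p 0.618). Both sets of ranges overlapped. Of the 31 members 20 were lower in T-cell dogs on average, and 57.2% of all genes were, with a member median of -0.11. Without dogs 029 and 038 this was 12 of 31 with a median of 0.13, and without dog 038 alone 11 of 31 with 0.14. Leaving out dog 036 gave 19 of 31 with -0.04. Without dog 028 it was 26 of 31 with -0.35, and after FPKM were rescaled to the same sum in every library (TPM) 28 of 31 with -0.28, when the median of all genes was -0.24.

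Within each label the change over time also gave no call among members, nor among the 14257 genes tested (0% in each). In the 7 B-cell dogs 26 of 31 members were below 0, beside 49.2% of all genes, with a median of -0.19, and NDUFA6 had the lowest p. Its lowest, median and highest FPKM were 60.2, 121 and 157 before treatment and 42.0, 82.4 and 149.5 at 6 weeks. It was lower in 6 of 7 dogs, with a log2 difference of -0.43 ± 0.20 (limma, adjusted p 0.935), which was -0.26 ± 0.19 without dog 034. Without dog 034 22 of 31 members were below 0, beside 57% of all genes, with a median of -0.09, and without dogs 029 and 034 23 of 31, beside 59% of all genes, with a median of -0.13. NDUFA6 was the only member at an unadjusted p under 0.05, beside 3.84% of genes. In the 5 dogs of unknown label 29 of 31 members were below 0, beside 44.3% of all genes, with a median of -0.25, and without dog 025 this was 24 of 31 with a median of -0.08. UQCRC2 had the lowest p there, with 68.5, 48.7, 44.4, 55.2 and 60 FPKM before treatment in dogs 024, 025, 026, 031_032 and 035 and 81.7, 22.1, 36.0, 34.8 and 52.9 at 6 weeks. It was lower in 4 of 5 dogs, with -0.40 ± 0.19 (limma, adjusted p 0.951), and was again the only member at an unadjusted p under 0.05, beside 4.56% of genes.

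In the 3 T-cell dogs 24 of 31 members were below 0, beside 56.8% of all genes, with a median of -0.20, and 4 had an unadjusted p under 0.05, beside 20.1% of genes. NDUFV3 was at 13.7, 17.2 and 17.7 FPKM before treatment in dogs 028, 036 and 038 and at 13.9, 6.79 and 10.2 at 6 weeks, with a log2 difference of -0.65 ± 0.27 (limma, adjusted p 0.199). COX5A was at 14.1, 23.3 and 21.5 FPKM and then 17.5, 6.87 and 9.15, with -0.83 ± 0.37 (limma, adjusted p 0.229). The SE and p-values of these changes rest on the spread among dogs of all labels, not among the 3 T-cell dogs alone. Dog 028 stood apart in both, with no decline. Without it COX5A was called at -1.39 ± 0.40 (limma, adjusted p 0.0396), beside 10.6% of genes, but the dogs left are then 036 and 038, whose lineage markers shifted or went against the label. Without dog 036 COX5A gave -0.43 ± 0.43 and without dog 038 -0.67 ± 0.46, and no member was called in either case. The members' median was -0.33 without dog 028 with 24 of 31 below 0, -0.15 without dog 036 with 20 and -0.12 without dog 038 with 18. UQCRC2 gave -0.51 ± 0.24 and was lower in 3 of 3 dogs.

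The difference in change between T-cell and B-cell dogs was tested as an interaction, and 0 of 31 members and 0 of 14257 genes (0%) were called, with 1 member and 15.3% of genes at an unadjusted p under 0.05. That member was ATP5IF1. Its log2 change was 0.72, 0.69 and -0.19 in T-cell dogs 028, 036 and 038, and from -0.91 to 0.45 in B-cell dogs. The difference in change was 0.65 ± 0.30 (limma, adjusted p 0.322), and the ranges overlapped. COX5A gave the opposite sign, -0.93 ± 0.45 (limma, adjusted p 0.333), and NDUFV3 -0.65 ± 0.32 (limma, adjusted p 0.340). The members' median difference in change was 0.03, with 14 of 31 below 0 against 55.2% of all genes, and its sign depended on the scaling and on single dogs. It was -0.17 with TPM and -0.07 after scaling by trimmed means (TMM), when the medians of all genes were -0.25 and -0.16. It was -0.11 without dog 028 with 19 of 31 below 0, 0.09 without dog 036, 0.10 without dog 038 and 0.14 without dogs 029 and 038, with 11 of 31.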

How the data were processed

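RNA of lymph node aspirates was sequenced in 30 libraries of 15 dogs. Per the submitters' processing notes, HISAT2 2.1.0 placed the reads on CanFam3.1 and StringTie 1.3.3 built the transcripts. The deposited FPKM values are scaled by length and depth and not log-transformed, and the deposited counts are unscaled whole numbers per gene ID. In 12 libraries counts and FPKM do not rank genes alike, so FPKM were the main measure and counts were used for 18 libraries.

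Symbols came from 4 supplementary gene tables, of which the change table of 9 dogs was recognized because its mean normalized counts are 1 weighted sum of their 18 libraries (1998 of 1998 genes, tolerance 1e-06), as was that of the other 6 dogs (1999 of 1999). The tables' fold changes and p-values were not used. The members and lists were chosen with earlier results of these data known. Members named were those with the lowest p or an adjusted p under 0.05 in each comparison, the highest and lowest mean of each complex, the catalytic or electron-carrying subunits and the extremes of spread, and NDUFB6, NDUFB10, UQCRB and the members that changed most in a single dog were added after their values were seen.

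FPKM were tested with limma 3.58.1 (R 4.3.3, variance trend) on log2(FPKM+1), keeping genes that averaged more than 1 FPKM, with Benjamini-Hochberg adjustment, so that fold changes of low genes are understated. Over time each dog was a block, as in the study. Label comparisons were fitted on the 15 libraries of a timepoint, where the dogs of unknown label entered for the spread only. Changes within a label and the difference in change came from 1 fit of all 30 libraries. Their SE and p-values thus rest on the spread among dogs of all labels. Pairs follow the dog numbers in the labels, and dog 031_032 was paired by elimination. Without it the members' median change over time was -0.16, with 6 members and 1637 of 14254 genes at an unadjusted p under 0.05 in limma. In dogs of unknown label that median was then -0.15, with 27 of 31 members below 0. As a check, the deviations of a dog's libraries from their timepoint means had a median correlation of 0.60 (lowest -0.11), with 14 of 15 above 0.1. The initial library correlated best with its own six-week partner in 9 of 15 dogs. It did not in dogs 025, 031_032, 034, 036, 037 and 038, in each of which the members' median fell. The pairs rest on the animal and not on this check. edgeR 4.0.16 and DESeq2 1.42.0 were run on counts with a mean above 50, which left 30 members. Scripts were tested on simulated data with known changes. Levels were computed in Python 3.11.15 with pandas 2.3.3. P-values measure the spread between dogs. The values of 1 member are not reported here and it is left out of the plots of single genes, though it counts in the totals. No sequences are printed, since no reference sequence was used here.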

Additional observations from a re-analysis of the deposited data

Results flagged for a closer look

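Within the 7 B-cell dogs and within the 5 dogs of unknown label, values with a wide gap to their nearest neighbor were picked out. The gap had to take up more of the group's range than Dixon's 95% limit allows. The 3 T-cell dogs were too few and were not tested. Of 192 groups of values tested over the 31 members and their median, 11 were picked out, and chance gives about 5%. All levels here are log2(FPKM+1).

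Before treatment dog 029 was far below the other B-cell dogs for NDUFB10 (6.71 against 7.41 to 7.81), NDUFB6 (4.13 against 5.23 to 6.01) and ATP5F1C (5.56 against 6.28 to 6.73). Dog 030 was low for NDUFV3 (3.17 against 3.65 to 3.98), and dog 033 was low for the same gene at 6 weeks (2.88 against 3.56 to 3.99). Among dogs of unknown label, dog 035 was low for NDUFB6 before treatment (5.65 against 6.02 to 6.14) and dog 024 was high for COX5B (8.09 against 7.50 to 7.61).

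The remaining values were changes over time. In dog 034 NDUFAF8 changed by -3.08, CYC1 by -1.5 and COX5B by -1.55, against -0.26 to 1.49, -0.40 to 0.33 and -0.37 to 0.30 in the other B-cell dogs. NDUFAF8 is listed at 0 in that six-week library. In dog 025 ATP5F1D changed by -1.29, against -0.14 to 0.30 in the other dogs of unknown label.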

How the results depend on the processing

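Depth and group size limit these results: with 3 T-cell dogs most 2-fold differences would be missed, and an adjusted p of 0.05 or more does not show that a gene stayed the same. Naming members from shortened tables leaves out relatives that no table named.

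Over the 15 dogs, the members' median stayed below 0 and 0 members were called in all alternatives except these. DESeq2 on counts of 9 dogs called 2 members and 580 genes, without a filter on low counts edgeR called 1 gene and gave a member median of -0.64, and without a filter on low FPKM limma called 1 member (UQCRC2, adjusted p 0.0479) and 3054 genes. In the other 6 dogs the median was 0.08 and all but 4 of the 31 members were above 0. Those that turned positive include ATP5F1D, NDUFAF8, UQCRB and NDUFV3, given above, and ATP5F1A (0.050), ATP5F1B (0.032), ATP5F1C (0.059), ATP5IF1 (0.14), COX4I1 (0.13), COX5A (0.20), COX5B (0.16), NDUFB6 (0.12), NDUFS1 (0.028), NDUFV1 (0.082), NDUFV2 (0.046), SDHA (0.056), SDHB (0.030) and UQCRFS1 (0.070). ATP5IF1 was at 0.041 without dogs 025 and 034, and without dogs 025, 029, 034, 036 and 038 it was at 0.054 and COX5A at 0.074. UQCR10, near 0 in the 15 dogs, turned negative at -0.11 with TPM scaling, -0.17 with TMM, -0.11 in FPKM of the 9 dogs and, in their counts, -0.062 (edgeR), -0.046 (DESeq2), -0.13 (edgeR with DESeq2 size factors) and -0.35 (edgeR without a filter). Without a filter on low counts, edgeR called 0 members and 1 gene in the 9 dogs, with a member median of -0.64. TPM and TMM scaling moved the median of all genes to -0.09 and -0.17 and that of the members to -0.30 and -0.37, with 31 of 31 below 0. Without the 3 dogs that had an FPKM sum above 1300000 the member median was -0.12, and 1 member had an unadjusted p under 0.05, beside 1481 of 14325 genes.

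The dog block mattered for unadjusted p-values only: without it 0 members were called, and 1 member and 523 genes had an unadjusted p under 0.05, against 11 and 1823 with it.

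For T-cell against B-cell dogs before treatment, the number of genes called was 76 with a mean FPKM above 10, 13 without a filter, 79 with TMM, 28 with TPM and 3495, with 2 members, without dogs 029 and 038. Leaving out 1 T-cell dog gave 1 to 2403 genes and 0 to 1 members, with the highest values without dog 038 and 1 gene without dog 028 or dog 036. At 6 weeks 11 genes were called without dogs 029 and 038, and 0 to 5 without 1 T-cell dog, 5 of them without dog 038. For the difference in change, a pseudocount of 0.1 gave 4 genes, and leaving out 1 T-cell dog gave 0 to 613, the highest without dog 028. For the change in T-cell dogs the number was 13 with a pseudocount of 0.1, 878 with TMM and 1 with TPM, where the member median was -0.44, and leaving out 1 dog gave 0 to 1509 genes and 0 to 1 members, the highest without dog 028. The cause of these shifts was not tested.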
